A study of Mus musculus with 9 samples.

Results

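The genes of glycolysis, glucose transport and glycogen were followed in the right ventricle of mice with monocrotaline-induced pulmonary hypertension, with and without a nutritional intervention. The set was chosen by name and holds 31 genes, of which 28 were measured among the 18820 genes of the array. Each gene was read from the probe set annotated to that gene alone, the brightest where there were several. Gpi1, Pfkfb1 and Eno1 had no probe set annotated to that gene alone and were not analysed here.

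All mice were female C57BL/6 animals, and each array held the right ventricular RNA of 1 mouse, with 3 mice per group. MCT+NI mice (615, 617 and 619) received 600 mg/kg monocrotaline under the skin every week for 8 weeks from the age of 10 weeks, and ate a diet of equal energy enriched in leucine and other protein, fish oil and oligosaccharides. MCT mice (640, 641 and 644) received the same injections and ate the AIN-93M control diet. Sham mice (620, 624 and 625) received saline and ate the control diet. Here MCT means monocrotaline, a plant alkaloid whose liver metabolites injure the vessels of the lung and so load the right ventricle. The methods describe the mice on the arrays as matched for disease severity, so they are a selection of the study's animals. The values are log2 intensities on an Affymetrix mouse gene 1.1 ST array, and the array medians lay between 4.77 and 4.79. Whole tissue was measured, so fewer cells of a type and less RNA per cell cannot be told apart. With 3 arrays per group, small differences could not be resolved.

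The working heart burns mainly fatty acids, and glucose enters its muscle cells through the insulin-responsive transporter GLUT4 (Slc2a4) and the basal transporter GLUT1 (Slc2a1). Glycolysis then splits glucose to pyruvate, with phosphofructokinase as its main controlled step, and lactate dehydrogenase interconverts pyruvate and lactate. Many of its steps have a form used in muscle and a form used in other tissues, made from separate genes. A ventricle under pressure load is known for a shift of its fuel use towards glucose.

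The 250 bases before the transcription start are shown for Ldha and Pfkp, which passed the test as higher in both MCT groups against sham mice, and for Gbe1, which passed it as lower between MCT and sham mice and did not pass between MCT+NI and sham mice. Hypoxia-inducible factors, which raise many glycolytic genes when oxygen is low, bind the core motifs ACGTG and GCGTG. Capitals mark these letters and their reverse complements, and neighbouring matches overlap where CACGTG reads the same on both strands. The sequences are from RefSeq on GRCm38.p6, 5′ to 3′ on the strand of the gene, at chr7:46845554-46845803 on the plus strand for Ldha, chr13:6648772-6649021 on the minus strand for Pfkp and chr16:70313699-70313948 on the plus strand for Gbe1. For Ldha and Pfkp the annotated gene reaches further upstream than the start used here.
Ldha: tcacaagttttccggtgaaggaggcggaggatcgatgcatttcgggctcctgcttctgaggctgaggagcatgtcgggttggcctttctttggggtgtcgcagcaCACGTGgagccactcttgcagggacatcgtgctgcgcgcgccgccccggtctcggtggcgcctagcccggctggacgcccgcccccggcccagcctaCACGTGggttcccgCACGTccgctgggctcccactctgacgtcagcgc
Pfkp: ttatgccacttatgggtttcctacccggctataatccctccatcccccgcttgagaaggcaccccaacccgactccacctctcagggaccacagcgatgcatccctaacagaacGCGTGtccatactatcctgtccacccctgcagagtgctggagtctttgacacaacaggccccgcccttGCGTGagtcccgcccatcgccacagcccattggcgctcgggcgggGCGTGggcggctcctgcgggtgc
Gbe1: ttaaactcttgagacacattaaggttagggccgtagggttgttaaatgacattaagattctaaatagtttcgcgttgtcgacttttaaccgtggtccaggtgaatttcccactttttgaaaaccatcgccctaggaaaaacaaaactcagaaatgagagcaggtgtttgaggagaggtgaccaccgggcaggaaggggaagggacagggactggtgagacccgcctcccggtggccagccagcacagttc

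The Ldha window held 5 matches in 3 runs of capitals, the Pfkp window 3 matches and the Gbe1 window 0. RefSeq promoters were matched for 27 of the 28 genes (all but Slc2a4), 1 window per gene. For others of these too, such as Pfkfb2, Eno3 and Pfkfb4, the annotated gene reaches further upstream than the start used. The windows of all promoters were not reduced to 1 per gene. One or both motifs stood in 21 of these 27 windows (77.8%) and in 38.6% of the 32851 promoter windows of the same length. ACGTG alone stood in 11 of the 27 (40.7%) and in 16.6% of all windows. Ugp2 and Pfkl, called between MCT+NI and sham mice, held 6 matches and 1 match of either motif. Windows with 5 or more matches of either motif, as in Ldha and Ugp2, made up 1.01% of all. Those with 3 or more, as in Pfkp, made up 6.58%. Slc2a1, Hk2 and Pgk1, which did not pass the test in any comparison, held ACGTG, as did Ldha but not Pfkp. A match is a run of letters and was not tested for binding.

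Between MCT and sham mice, the phosphofructokinase of platelets (Pfkp) and the lactate dehydrogenase A chain (Ldha) rose and the glycogen branching enzyme (Gbe1) fell, while 25 of the 28 genes did not pass the test. Calls were made with limma at a Benjamini-Hochberg adjusted p under 0.05 over all 18820 genes. So 2 of 28 genes were higher and 1 was lower, against a background of 4.65% of all genes higher and 1.61% lower. At an unadjusted p under 0.05, 4 genes were higher (Pfkp, Ldha, Pgam1, Ugp2) and 4 were lower (Gbe1, Pfkm, Ldhb, Slc2a4), against 10.6% and 9.14% of all genes. The MCT and sham mice did not overlap in 6 genes that were higher and 4 that were lower, against 11.7% and 10.2% of all genes. With each array centred on the median of its 18820 gene values, Pfkp and Gbe1 remained called, 1 higher and 1 lower. The median log2 difference was -0.00051 over the 28 genes and -0.016 over all genes.

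Between MCT+NI and sham mice, 4 of the 28 genes rose (Pfkp, Pfkl, Ldha and Ugp2) and 0 fell, against a background of 4.52% of all genes higher and 1.75% lower. At an unadjusted p under 0.05, 5 were higher, with Pgam1 added, and 2 were lower, Pfkm and Pfkfb3, against 10.2% and 9.37% of all genes. The groups did not overlap in 6 genes that were higher and 4 that were lower, against 10.7% and 10.3% of all genes. The sham mice are shared by both comparisons, so the overlap of their calls is no independent evidence.

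**Figure D1:**
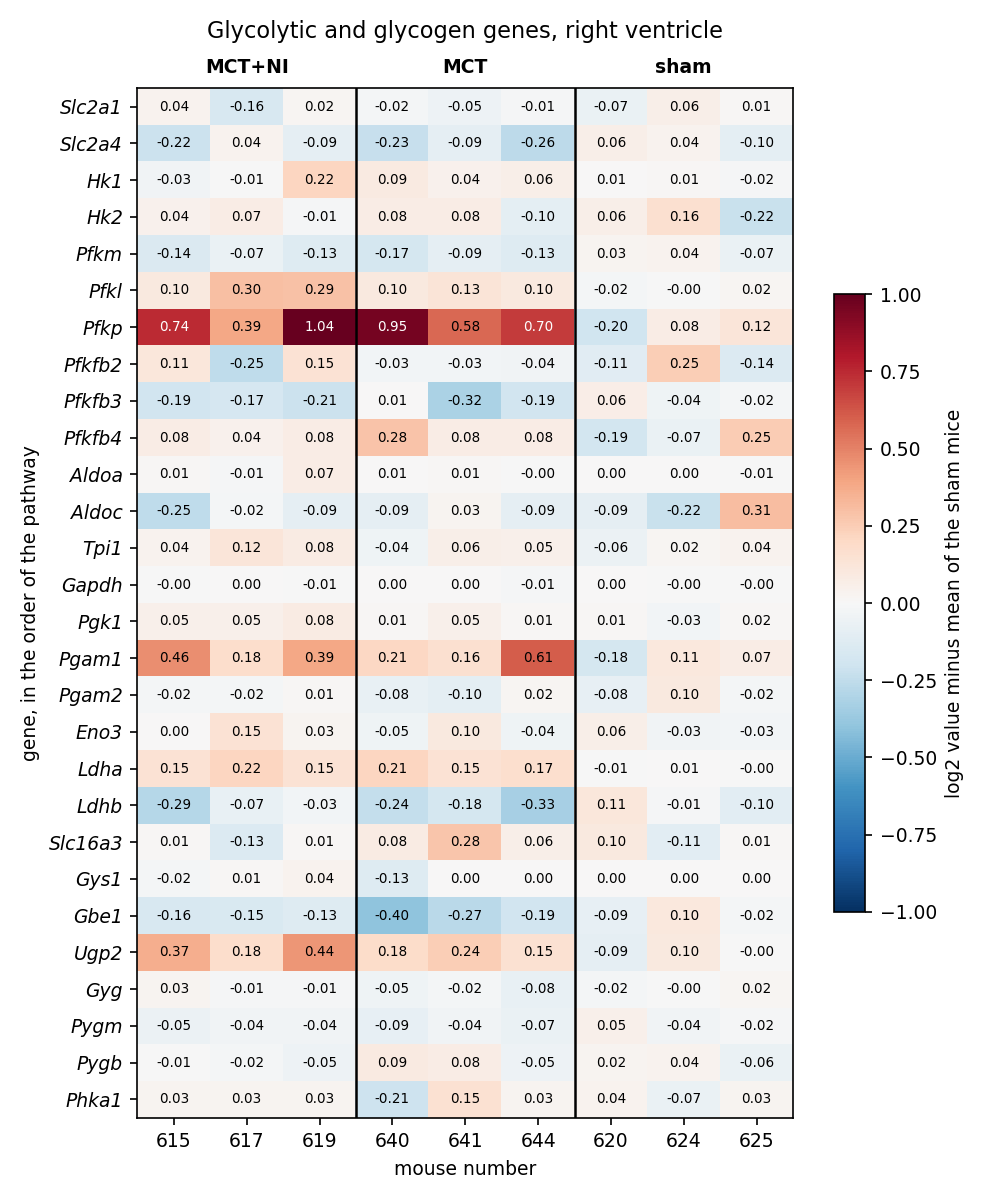
Log2 value of each of the 28 genes (rows, in the order of the pathway) in each of the 9 mice (columns), minus the mean of the 3 sham mice. Pfkp stands out in all 6 mice given MCT, by 0.39 to 1.04, and the next row in size is Pgam1, which reaches 0.61 in MCT mouse 644.

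Phosphofructokinase commits the sugar to glycolysis, and heart muscle uses mainly its muscle form, Pfkm, beside the liver form Pfkl and the platelet form Pfkp. Pfkp had log2 values of 7.99, 7.63 and 8.28 in the MCT+NI mice, 8.20, 7.82 and 7.95 in the MCT mice and 7.05, 7.32 and 7.37 in the sham mice. Every mouse given MCT lay above every sham mouse. The difference was 0.74 (SE 0.165) between MCT and sham mice, or 1.67-fold (adjusted p = 0.031, limma), and 0.72 between MCT+NI and sham mice, or 1.65-fold (adjusted p = 0.035, limma).

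Pfkl had log2 values of 8.04, 8.25 and 8.24 in the MCT+NI mice, 8.04, 8.07 and 8.04 in the MCT mice and 7.92, 7.94 and 7.96 in the sham mice. Both MCT groups lay above the sham mice without overlap, and MCT+NI mouse 615 shared the value 8.0417 with MCT mice 640 and 644. The difference was 0.23 (SE 0.056) between MCT+NI and sham mice, or 1.18-fold (adjusted p = 0.045, limma), and 0.11 between MCT and sham mice (adjusted p = 0.336, limma). Pfkm had log2 values of 10.93, 11.01 and 10.94 in the MCT+NI mice, 10.90, 10.98 and 10.95 in the MCT mice and 11.11, 11.12 and 11.01 in the sham mice. All mice given MCT lay below all sham mice, mouse 617 of the MCT+NI group by the narrowest margin. The Pfkm difference did not pass the test, at -0.13 (SE 0.039, adjusted p = 0.093, limma) in MCT and -0.12 (adjusted p = 0.14, limma) in MCT+NI mice against sham mice.

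With each of the 9 mice left out in turn, the MCT against sham difference of Pfkp stayed between 0.64 and 0.83, but its adjusted p lay between 0.014 and 0.118 and passed in 2 of 9 fits, those without MCT+NI mouse 617 or 619. Against sham mice, MCT+NI mice kept the Pfkp call in 2 of 9 fits, without MCT mouse 640 or MCT+NI mouse 617 (adjusted p 0.011 to 0.11). The Pfkl call was kept in 1 of 9, without MCT+NI mouse 615 (adjusted p 0.0085 to 0.162).

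The enzymes of the Pfkfb family make and break fructose 2,6-bisphosphate, the strongest activator of phosphofructokinase. Pfkfb2, the heart form, had log2 values of 8.34, 7.97 and 8.37 in the MCT+NI mice, 8.20, 8.20 and 8.19 in the MCT mice and 8.12, 8.47 and 8.09 in the sham mice, which overlapped throughout. Pfkfb3, the inducible form, had log2 values of 5.60, 5.62 and 5.58 in the MCT+NI mice, 5.80, 5.47 and 5.60 in the MCT mice and 5.86, 5.75 and 5.77 in the sham mice. The MCT+NI mice lay below the sham mice in Pfkfb3, by 0.19 (adjusted p = 0.252, limma), which did not pass. Pfkfb4 averaged 4.95 in MCT+NI, 5.03 in MCT and 4.88 in sham mice, and its groups overlapped.

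The A chain of lactate dehydrogenase favours the making of lactate and the B chain, the main one of the heart, its oxidation to pyruvate. Ldha had log2 values of 11.49, 11.56 and 11.49 in the MCT+NI mice, 11.56, 11.49 and 11.52 in the MCT mice and 11.34, 11.35 and 11.34 in the sham mice. The 6 mice given MCT lay close together and above all sham mice. MCT mouse 641 and MCT+NI mice 615 and 619 shared the value 11.4925, a tie that lowers the spread. The difference was 0.18 (SE 0.030) between MCT and sham mice, or 1.13-fold (adjusted p = 0.0092, limma), and 0.17 between MCT+NI and sham mice, or 1.12-fold (adjusted p = 0.012, limma). Ldha passed in all 9 fits that left out 1 mouse, in both comparisons, with adjusted p between 0.0075 and 0.042. It no longer passed with each array centred on the median of its gene values, at 0.11 for MCT and 0.12 for MCT+NI against sham mice. That centring moved all differences from sham mice downwards, as given in the closing section. Nor did Ldha pass without limma's intensity trend (adjusted p = 0.074 for MCT and 0.085 for MCT+NI).

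Ldhb had log2 values of 10.30, 10.51 and 10.55 in the MCT+NI mice, 10.35, 10.40 and 10.25 in the MCT mice and 10.70, 10.57 and 10.48 in the sham mice. The MCT mice lay below the sham mice, and the MCT+NI mice spanned both. The difference between MCT and sham mice, -0.25 (SE 0.078, adjusted p = 0.11, limma), did not pass. It passed with the mean of the gene's probe sets, at -0.20 (adjusted p = 0.047, limma), but the second of these sets carries a number among those of chromosome 19, while the gene lies on chromosome 6. Slc16a3, a monocarboxylate transporter that exports lactate, averaged 5.17 ± 0.083 in MCT+NI, 5.34 ± 0.12 in MCT and 5.21 ± 0.10 in sham mice (SD, n = 3 each). Its MCT+NI mice lay below its MCT mice, by 0.18 (adjusted p = 1, limma), without passing the test.

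Glycogen is built from UDP-glucose, made by Ugp2, on a core protein (Gyg), by glycogen synthase (Gys1 in muscle) and the branching enzyme Gbe1. Gbe1 had log2 values of 7.93, 7.94 and 7.96 in the MCT+NI mice, 7.69, 7.82 and 7.90 in the MCT mice and 8.01, 8.19 and 8.07 in the sham mice. The groups fell in order without overlap, with MCT mice lowest and MCT+NI mice between them and the sham mice. The difference between MCT and sham mice was -0.29 (SE 0.065), or 0.819-fold (adjusted p = 0.034, limma), and that between MCT+NI and sham mice -0.15 (adjusted p = 0.26, limma). The call was kept in 2 of the 9 fits without 1 mouse, those without sham mouse 620 or MCT mouse 644 (adjusted p 0.029 to 0.108).

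Ugp2 had log2 values of 9.32, 9.13 and 9.39 in the MCT+NI mice, 9.14, 9.20 and 9.10 in the MCT mice and 8.86, 9.05 and 8.95 in the sham mice. All mice given MCT lay above all sham mice. The difference was 0.33 (SE 0.072) between MCT+NI and sham mice, or 1.25-fold (adjusted p = 0.031, limma), and 0.19 between MCT and sham mice (adjusted p = 0.178, limma). The first was kept in 3 of the 9 fits without 1 mouse, those without sham mouse 624, MCT mouse 644 or MCT+NI mouse 617 (adjusted p 0.0081 to 0.115). Gys1 averaged 9.13 in MCT+NI, 9.08 in MCT and 9.12 in sham mice, and Gyg averaged 9.09 in MCT+NI, 9.04 in MCT and 9.09 in sham mice.

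Breakdown of glycogen runs through glycogen phosphorylase, with Pygm as the muscle and Pygb as the brain form, which the heart also uses. Pygm had log2 values of 11.52, 11.53 and 11.53 in the MCT+NI mice, 11.49, 11.53 and 11.50 in the MCT mice and 11.62, 11.54 and 11.56 in the sham mice. Pygb had log2 values of 10.83, 10.82 and 10.79 in the MCT+NI mice, 10.93, 10.92 and 10.79 in the MCT mice and 10.86, 10.88 and 10.78 in the sham mice. Neither passed the test, although Pygm lay lowest by a small margin in all mice given MCT, at -0.064 for MCT and -0.044 for MCT+NI against sham mice. Phka1, the muscle regulatory subunit of the kinase that switches phosphorylase on, averaged 7.28 in MCT+NI, 7.24 in MCT and 7.25 in sham mice.

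**Figure D2:**
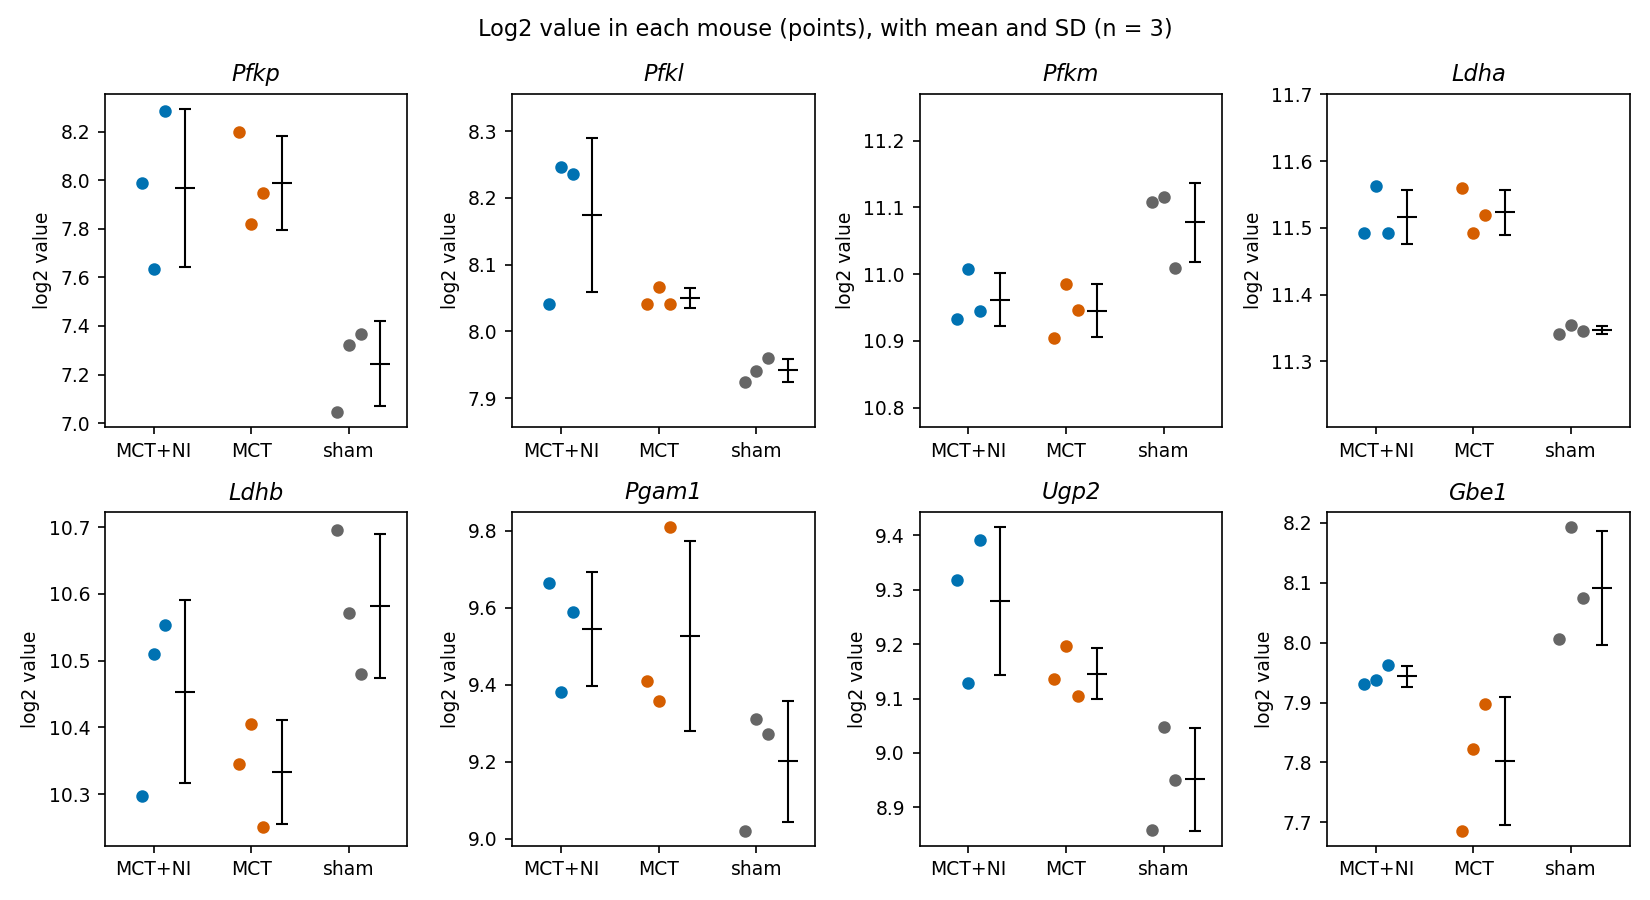
Log2 value of 8 genes in each mouse (points) by group, with the mean and SD to the right of the points (n = 3). Pfkp, Pfkl, Ldha, Pgam1 and Ugp2 lie above the sham mice in all 6 mice given MCT, while Pfkm and Gbe1 lie below them. The vertical axes differ between panels and do not start at 0.

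Glucose uptake and its first phosphorylation held no call. Slc2a4 had log2 values of 10.13, 10.39 and 10.26 in the MCT+NI mice, 10.12, 10.26 and 10.09 in the MCT mice and 10.41, 10.39 and 10.25 in the sham mice. MCT mouse 641 lay within the range of the sham mice. Its difference between MCT and sham mice was -0.19 (SE 0.074, adjusted p = 0.188, limma). Slc2a1 had log2 values of 8.22, 8.03 and 8.20 in the MCT+NI mice, 8.16, 8.13 and 8.17 in the MCT mice and 8.12, 8.24 and 8.19 in the sham mice, with full overlap.

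Hexokinase traps glucose in the cell as glucose 6-phosphate. Hk2, the insulin-regulated muscle form, had log2 values of 9.48, 9.51 and 9.42 in the MCT+NI mice, 9.51, 9.51 and 9.34 in the MCT mice and 9.49, 9.60 and 9.21 in the sham mice. Hk1 had log2 values of 9.22, 9.25 and 9.47 in the MCT+NI mice, 9.34, 9.30 and 9.31 in the MCT mice and 9.26, 9.26 and 9.24 in the sham mice. Every MCT mouse lay above every sham mouse in Hk1, by 0.064 in the mean (adjusted p = 0.624, limma), which did not pass.

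From aldolase to enolase, 0 of the genes measured passed the test. Aldoa, the muscle aldolase, had log2 values of 12.22, 12.20 and 12.28 in the MCT+NI mice, 12.21, 12.22 and 12.20 in the MCT mice and 12.21, 12.21 and 12.20 in the sham mice. Aldoc, the brain form, was dim, at 2.93, 3.16 and 3.09 in the MCT+NI mice, 3.09, 3.21 and 3.09 in the MCT mice and 3.09, 2.96 and 3.49 in the sham mice, below the median gene of 5.42. Pgam2, the muscle phosphoglycerate mutase, had log2 values of 10.65, 10.65 and 10.68 in the MCT+NI mice, 10.59, 10.57 and 10.69 in the MCT mice and 10.59, 10.77 and 10.65 in the sham mice.

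Pgam1, the form of other tissues, had log2 values of 9.67, 9.38 and 9.59 in the MCT+NI mice, 9.41, 9.36 and 9.81 in the MCT mice and 9.02, 9.31 and 9.27 in the sham mice. All mice given MCT lay above all sham mice, but the differences of 0.32 (adjusted p = 0.207, limma) in MCT and 0.34 (adjusted p = 0.183, limma) in MCT+NI mice did not pass. Eno3, the muscle enolase, averaged 12.18 in MCT+NI, 12.12 in MCT and 12.11 in sham mice. Tpi1, the isomerase of the triose phosphates, averaged 10.75 in MCT+NI, 10.69 in MCT and 10.67 in sham mice. Gapdh averaged 13.27 in each of the 3 groups, and Pgk1, an enzyme that makes ATP, averaged 9.84 in MCT+NI, 9.80 in MCT and 9.77 in sham mice.

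Gapdh, Pgk1 and Pgam1 are uncertain, because their brightest probe sets carry numbers that lie among those of another chromosome. None of the 17 Gapdh probe sets lay among those of chromosome 6, where the gene is, so near-identical copies may share the signal. Read from the probe sets among the numbers of their own chromosome, Pgk1 differed by 0.027 and Pgam1 by 0.28 between MCT and sham mice, and neither passed. This Pgam1 probe set had the same value in every mouse as one numbered among those of chromosome 7. It therefore does not separate Pgam1 from a near-identical copy.

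**Figure D3:**
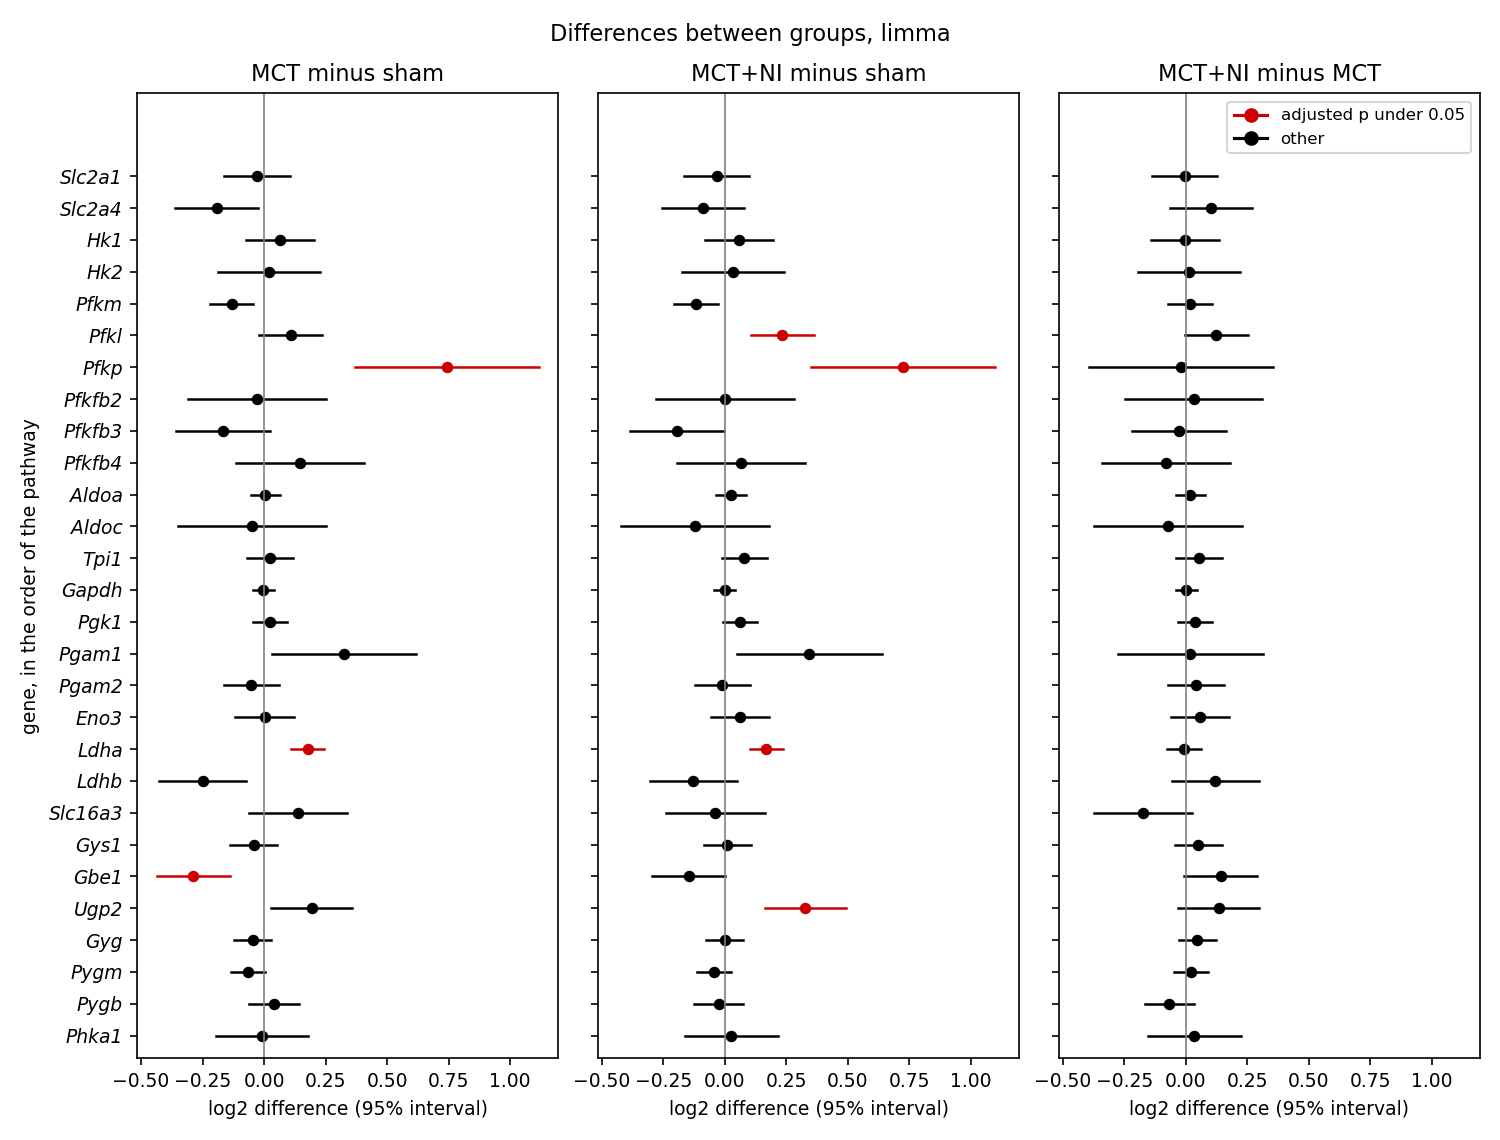
Log2 difference of each of the 28 genes (points) with its 95% confidence interval (lines) from limma, for MCT minus sham, MCT+NI minus sham and MCT+NI minus MCT mice. Red marks an adjusted p under 0.05. It marks 3 genes in the left panel, 4 in the middle panel and 0 in the right panel.

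Between MCT+NI and MCT mice, 0 of the 28 genes passed the test in limma, and 0 passed at an unadjusted p under 0.05, against 0% and 2.9% of all genes. The smallest adjusted p was 1. Differences ranged between -0.18 (Slc16a3) and 0.14 (Gbe1), with a median of 0.020 over the 28 genes and -0.0046 over all genes. The groups did not overlap in 2 genes that were higher with the intervention, Gbe1 and Gyg, and in 1 that was lower, Slc16a3, against 3.11% and 2.96% of all genes. For Pfkp the difference was -0.020, with a 95% confidence interval between -0.39 and 0.35, and for Ldha -0.0078, between -0.076 and 0.060. For Gbe1 it was 0.14, between -0.0066 and 0.29. These intervals bound what 3 mice per group could resolve.

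The muscle and non-muscle forms were then set against each other. Of the 10 muscle forms 0 passed in any comparison, with median differences of -0.036 for MCT against sham, 0.0057 for MCT+NI against sham and 0.034 for MCT+NI against MCT mice. Of the 9 non-muscle forms, Pfkp rose in MCT mice, and Pfkp and Pfkl rose in MCT+NI mice, against sham mice. The median differences of the non-muscle forms were 0.064 for MCT against sham, 0.059 for MCT+NI against sham and -0.020 for MCT+NI against MCT mice. Of all genes, 4.65% rose and 1.61% fell in MCT mice, and 4.52% rose and 1.75% fell in MCT+NI mice, against sham mice. With shares this small, few or no calls are awaited among 10 or 9 genes. For MCT+NI against MCT mice all 10 muscle forms and 2 of the 9 non-muscle forms had positive differences, none of which passed. The same MCT arrays enter this comparison and that of MCT with sham mice. Markers of cell types, listed below, also split by sign between MCT+NI and MCT mice. Positive were 7 of 7 ventricular and 2 of 8 atrial cardiomyocyte markers, and 4 of 8 endothelial markers. So were 3 of 8 smooth muscle and pericyte, 1 of 8 macrophage and 0 of 8 fibroblast markers. The part of cell types in the signs of the isoforms was not tested.

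Within each mouse the log2 value of the non-muscle form was subtracted from that of the muscle form, and the change of this difference between groups was tested in 8 pairs of isoforms over 3 comparisons. The exact permutation test over mice cannot go below p = 0.1 with 3 mice against 3, and after adjustment over the 24 tests the smallest p was 0.4, so none could pass. The change was negative in 6 of 8 pairs between MCT and sham mice and in 6 of 8 between MCT+NI and sham mice. It was without overlap in 3 pairs in each, and positive without overlap in 0. These 3 pairs were Pfkm with Pfkp, Pfkm with Pfkl and Pgam2 with Pgam1, and the first 2 share Pfkm. The third carries the uncertainty of the Pgam1 probe sets given above. How often pairs of other genes part without overlap was not tested, so the count of 3 against 0 has no background share. Of single genes, 11.7% lay higher and 10.2% lower without overlap in the MCT group than in the sham group. For the MCT+NI group these shares were 10.7% and 10.3%. A shift from muscle to non-muscle forms was therefore not tested by this count.

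Relative to the sham mean, Pfkm minus Pfkp was -0.89, -0.46 and -1.17 in the MCT+NI mice, -1.13, -0.67 and -0.83 in the MCT mice and 0.23, -0.038 and -0.19 in the sham mice (exact permutation p = 0.1 for both MCT groups against sham mice, two-sided). Pfkm minus Pfkl was -0.25, -0.37 and -0.43 in the MCT+NI mice, -0.27, -0.22 and -0.23 in the MCT mice and 0.047, 0.039 and -0.087 in the sham mice (exact permutation p = 0.1 for both). Pgam2 minus Pgam1 was -0.48, -0.20 and -0.38 in the MCT+NI mice, -0.29, -0.26 and -0.59 in the MCT mice and 0.098, -0.0081 and -0.090 in the sham mice (exact permutation p = 0.1 for both). In all 3 pairs the sham mice lay highest, and the 6 mice given MCT lay below them.

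The other 5 pairs overlapped in every comparison. Between MCT and sham mice Slc2a4 minus Slc2a1 differed by -0.16, Pygm minus Pygb by -0.11 and Hk2 minus Hk1 by -0.044. Aldoa minus Aldoc differed by 0.054 and Pfkfb2 minus Pfkfb3 by 0.14. Between MCT+NI and MCT mice 7 of the 8 changes were positive, between 0.019 and 0.11, and that of Pfkm minus Pfkl was -0.11 (smallest exact permutation p = 0.2).

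**Figure D4:**
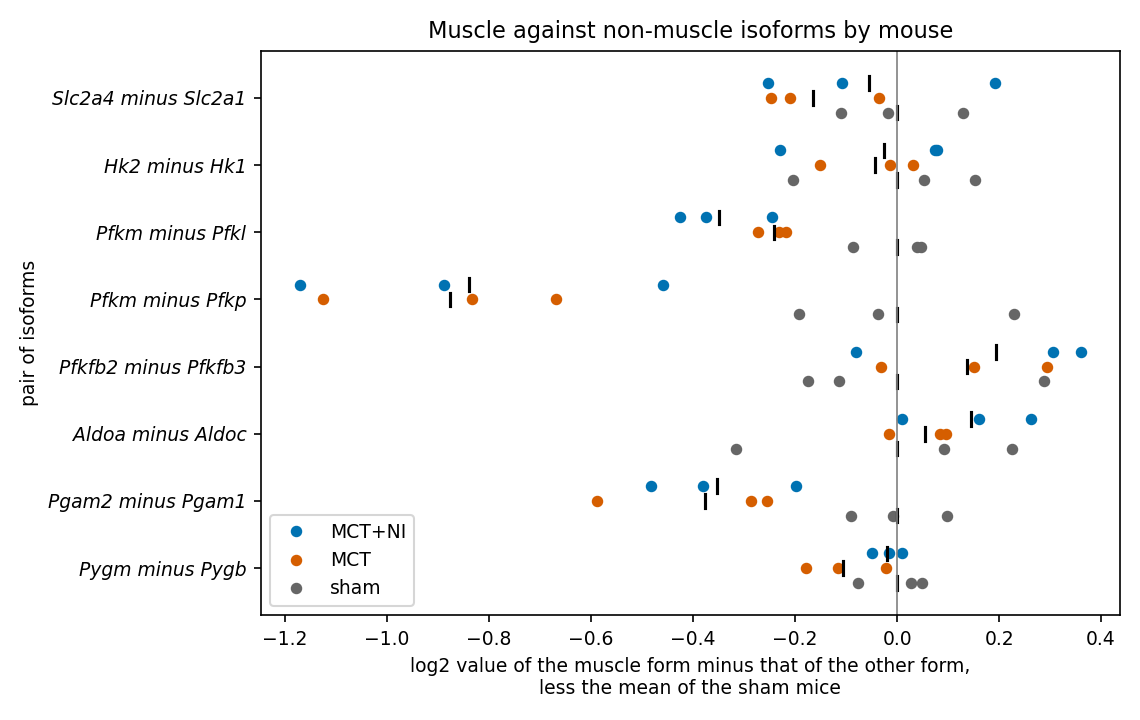
Difference between the log2 values of the muscle and the non-muscle form in each mouse (points), less the mean of the sham mice, for 8 pairs. Black ticks are group means (n = 3). Pfkm minus Pfkp, Pfkm minus Pfkl and Pgam2 minus Pgam1 lie below the sham mice in all 6 mice given MCT, and the other 5 pairs overlap.

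Some transcripts of other cell types differed between the groups. Over all genes, 4.52% rose and 1.75% fell in MCT+NI mice, and 4.65% rose and 1.61% fell in MCT mice, against sham mice. Of 8 smooth muscle and pericyte markers, 5 rose in MCT+NI and 5 in MCT mice, and their mean log2 level was 8.36 to 8.45 in MCT+NI, 8.32 to 8.54 in MCT and 7.99 to 8.04 in sham mice. Of 8 fibroblast markers, 3 rose in MCT+NI and 4 in MCT mice, with a mean level of 8.46 to 8.84 in MCT+NI, 8.72 to 8.75 in MCT and 8.12 to 8.40 in sham mice. Of 8 endothelial markers, 4 rose and 2 fell in MCT+NI mice, and 2 rose and 1 fell in MCT mice, with a mean level of 8.59 to 8.85 in MCT+NI, 8.71 to 8.76 in MCT and 8.46 to 8.68 in sham mice. Of 8 macrophage markers, 1 rose and 1 fell in MCT+NI mice, and 2 rose in MCT mice, with a mean level of 6.87 to 7.20 in MCT+NI, 6.94 to 7.34 in MCT and 6.71 to 6.92 in sham mice. The 7 ventricular cardiomyocyte markers averaged 12.40 to 12.42 in MCT+NI, 12.37 to 12.39 in MCT and 12.40 to 12.41 in sham mice. They were bright in every mouse, and 1 of the 7 fell in MCT mice. Atrial transcripts were high in the sham mice too and are given next. Of 8 skeletal muscle, 6 adipocyte and 3 erythroid markers, 0 passed in limma, with 0 at an unadjusted p under 0.05. Cnn1 of the smooth muscle list, and Pdgfra and Tcf21 of the fibroblast list, were lower in both MCT groups without passing. The part of these cell types in the differences of Pfkp, Pfkl, Ldha, Ugp2 and Gbe1 was not tested.

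Atrial transcripts split the mice within both MCT groups. Myl7, the light chain of atrial myosin, had log2 values of 9.79, 5.21 and 3.92 in the MCT+NI mice, 3.07, 3.66 and 11.40 in the MCT mice and 10.55, 11.77 and 11.57 in the sham mice. The mean of 8 atrial markers was 5.99 to 9.04 in MCT+NI, 5.87 to 10.49 in MCT and 10.02 to 10.86 in sham mice, and all 8 were lower in both MCT groups at an unadjusted p under 0.05, with 0 after adjustment in limma. With this mean as a covariate, Pfkp (0.71, adjusted p = 0.177), Ldha (0.17, adjusted p = 0.087) and Gbe1 (-0.21, adjusted p = 0.259) no longer passed between MCT and sham mice. Pgam1 (0.59, adjusted p = 0.029) and Ldhb (-0.39, adjusted p = 0.037) then did. In MCT+NI against sham mice Pfkp, Pfkl, Ldha and Ugp2 no longer passed in that fit, and Pgam1 did (0.64, adjusted p = 0.031). Without MCT mouse 644 and MCT+NI mouse 615, whose atrial levels were highest in their groups, Ldha remained called in both comparisons with sham mice (0.18, adjusted p = 0.040, for MCT mice), as did Pfkl in MCT+NI mice (0.30, adjusted p = 0.015). In that fit Pfkp (0.76, adjusted p = 0.118) and Gbe1 (-0.34, adjusted p = 0.053) in MCT mice, and Pfkp (0.71, adjusted p = 0.157) and Ugp2 (0.31, adjusted p = 0.149) in MCT+NI mice, did not pass. The mice given MCT that it kept had Myl7 values of 3.07 to 5.21, against 10.55 to 11.77 in the sham mice. Atrial level and MCT therefore cannot be told apart in that fit.

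Around these steps lie 78 further measured genes, in 6 lists of glucose handling. Between MCT and sham mice 3 of the 78 rose and 5 fell, against 4.65% and 1.61% of all genes. Between MCT+NI and sham mice 2 rose and 7 fell, against 4.52% and 1.75% of all genes. Between MCT+NI and MCT mice 0 passed in limma, and 4 had an unadjusted p under 0.05, against 0% and 2.9% of all genes. None of 13 other glycolytic enzymes passed in any comparison. With the atrial mean as a covariate, 3 of the 78 passed in MCT and 1 in MCT+NI mice against sham mice. The 8 genes called in MCT mice became 5 without MCT mouse 640. The 9 called in MCT+NI mice became 4 without sham mouse 624 or MCT+NI mouse 619, and 5 without sham mouse 625 or MCT+NI mouse 615.

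Among 18 other glycogen genes, Pgm2, a sugar phosphate mutase that acts mainly on ribose phosphates, had log2 values of 7.02, 6.91 and 6.98 in the MCT+NI mice, 6.92, 7.23 and 6.87 in the MCT mice and 6.34, 6.24 and 6.29 in the sham mice. It rose by 0.72 (SE 0.091, adjusted p = 0.0020, limma) in MCT and by 0.68 (adjusted p = 0.0028, limma) in MCT+NI mice. Phka2, the liver regulatory subunit of phosphorylase kinase, averaged 7.50 in MCT+NI, 7.50 in MCT and 7.87 in sham mice and fell in both MCT groups (adjusted p = 0.0080 for MCT+NI and 0.0084 for MCT, limma). Phkg1, its muscle catalytic subunit, averaged 7.25 in MCT+NI, 7.41 in MCT and 7.85 in sham mice and fell by 0.59 in MCT+NI mice (adjusted p = 0.034, limma). The Phkg1 difference of -0.44 in MCT mice did not pass (adjusted p = 0.102, limma).

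Of 13 genes in side branches of glycolysis, those called belong to the pentose phosphate pathway. Rpe, its epimerase, averaged 6.58 in MCT+NI, 6.55 in MCT and 6.21 in sham mice and rose by 0.37 in MCT+NI (adjusted p = 0.0047, limma) and by 0.35 in MCT mice (adjusted p = 0.0068, limma). Tkt, transketolase, averaged 6.42 in MCT+NI, 6.46 in MCT and 6.14 in sham mice and rose by 0.32 in MCT mice (adjusted p = 0.031, limma). In MCT+NI mice its difference of 0.28 narrowly missed (adjusted p = 0.0504, limma).

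Of 17 genes between insulin and glucose transport, Tbc1d4 and Prkaa2 fell. Tbc1d4, the Akt substrate that holds GLUT4 vesicles inside the cell, averaged 8.41 in MCT+NI, 8.52 in MCT and 8.96 in sham mice (adjusted p = 0.010 for MCT+NI and 0.028 for MCT against sham mice, limma). Prkaa2, the catalytic subunit of AMP-activated kinase found mainly in muscle, averaged 9.48 in MCT+NI, 9.41 in MCT and 9.71 in sham mice (adjusted p = 0.035 for MCT+NI and 0.011 for MCT, limma). Slc2a8, a transporter of inner membranes and 1 of 9 other glucose transporters, averaged 5.98 in MCT+NI, 6.05 in MCT and 6.28 in sham mice and fell in MCT+NI mice (adjusted p = 0.044, limma).

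Of 8 genes for the transport and mitochondrial use of pyruvate and lactate, 2 fell in both MCT groups. Pdk2, a kinase that switches pyruvate dehydrogenase off, had log2 values of 10.81, 10.83 and 10.82 in the MCT+NI mice, 10.73, 10.82 and 10.73 in the MCT mice and 11.04, 11.06 and 10.96 in the sham mice. It fell by 0.20 in MCT+NI mice (adjusted p = 0.016, limma) and by 0.26 in MCT mice (adjusted p = 0.0044, limma). Slc16a7, a carrier of lactate and pyruvate, averaged 6.15 in MCT+NI, 6.12 in MCT and 6.73 in sham mice (adjusted p = 0.023 for MCT+NI and 0.017 for MCT, limma). The mice given MCT lay apart from the sham mice in all of these genes.

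**Figure D5:**
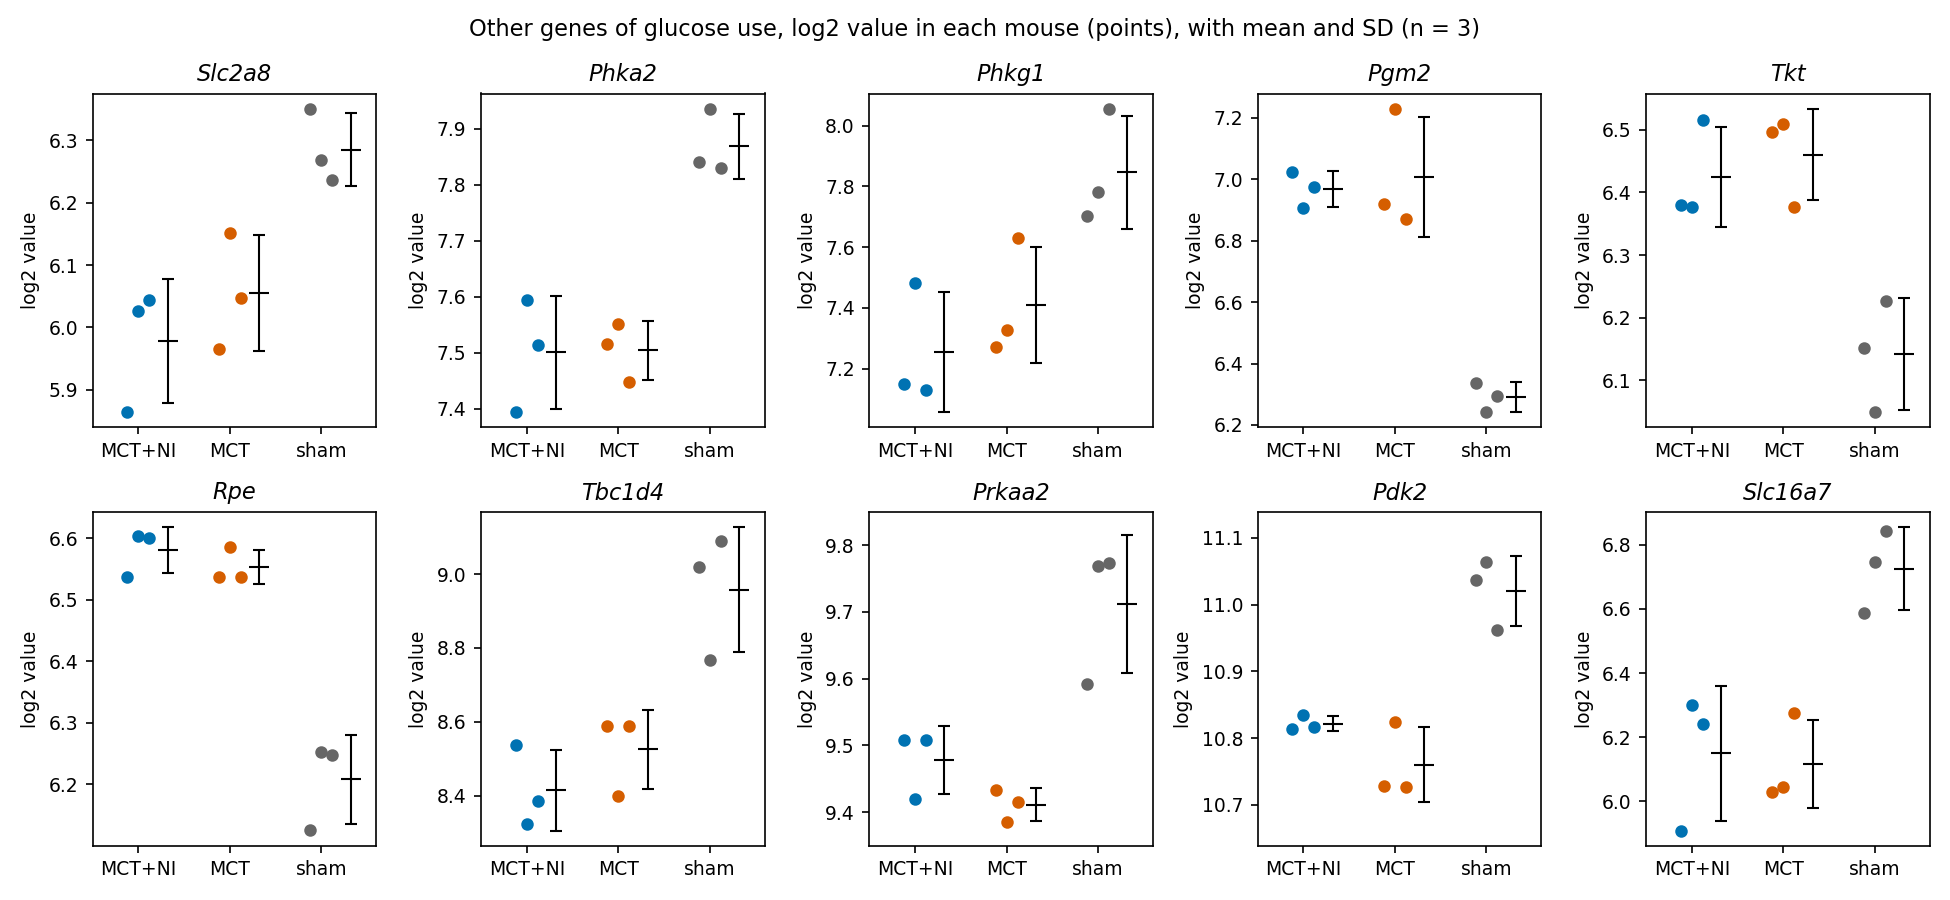
Log2 value in each mouse (points) of the 10 further genes of glucose handling that passed the test in either MCT group against sham mice, with the mean and SD to the right of the points (n = 3). Pgm2, Tkt and Rpe lie above the sham mice, and the other 7 lie below them, in all 6 mice given MCT. The vertical axes differ between panels and do not start at 0.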

How the data were processed

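Right ventricular RNA (100 ng per mouse) of 9 mice was hybridised to 1 array each, 3 per group. The authors computed the values by robust multi-array analysis (RMA, version not given in the sources used here) and deposited log2 intensities, which were used without further normalization. This step makes the arrays' distributions alike, so a change shared by most genes would not show. Of 35556 rows, 21218 had 1 gene in the platform annotation, 1881 several and 12457 none, and only the first entered the tests. In 12042 of the 18820 genes at least 2 mice share 1 value, which lowers the spread of single genes. The groups were compared two-sided in limma 3.58.1 (R 4.3.3), with the variance prior following intensity and the 9 mice in 1 model, which was tested on simulated data. The pairs of isoforms were compared by exact permutation in Python 3.11.15. One of 9 pairs planned held Eno1 and was not run, which left 24 tests.

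The genes, lists and markers were chosen with earlier results of these data known. Named are all members, and of each further list the genes called in any comparison, at most 5 per list. The methods name an Entrez-based redefinition of the probes, whereas the rows used here carry the manufacturer's probe set numbers. The diets began 2 weeks before the injections by the labels, and the methods give a shorter time. Alternatives are given in the closing section.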

Additional observations from a re-analysis of the deposited data

How the results depend on the processing

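The 3 members called between MCT and sham mice became 8 at an unadjusted p under 0.05, 1 without the intensity trend, 1 with every row tested, 1 without MCT mouse 644 and MCT+NI mouse 615 together, and 1 to 2 with single mice left out. The 4 called between MCT+NI and sham mice became 7 at an unadjusted p under 0.05, 1 without the trend, 1 with only the 2 groups in the fit, 2 with arrays centred on their median, 1 with every row tested, 1 with the atrial mean as a covariate, 2 without mice 644 and 615, and 1 to 3 with single mice left out. With the atrial mean as a covariate, the 1 call in MCT+NI mice was Pgam1, so none of the 4 remained. In MCT mice the 2 calls in that fit were Pgam1 and Ldhb, so none of the 3 remained. With every row tested, more features share the adjustment. The cause was not tested for the others. Of the further genes, 8 called in MCT mice became 3 with the atrial covariate, 5 without mice 644 and 615 and 5 to 10 with single mice left out, and 9 called in MCT+NI mice became 5 with only the 2 groups, 5 with every row, 1 with the covariate and 4 to 9 with single mice left out. With that covariate the calls over all genes were 345 in MCT+NI and 501 in MCT mice, against 1179 in each without it. For MCT+NI against MCT the members and the further genes had 0 calls in every fit. The number of pairs with a negative change between MCT and sham mice was 5 to 7 with single mice left out. Reading genes from probe sets of their own chromosome, and the further genes under the alternatives, were added after the data were seen. Centring used the median of the gene values of each array, not that of all its rows. It moved the median difference of all genes by -0.064 (MCT against sham) and -0.051 (MCT+NI against sham). Before centring these medians were -0.016 and -0.017, so centring made them more negative. No called difference changed its sign. No paired analysis was possible because the groups share no mouse numbers.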
